A study of Mus musculus with 12 samples.

Results

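The genes described here encode the proteins that choose splice sites in mouse C2C12 cells: the SR proteins, the hnRNPs, the PTB, MBNL, CELF, RBFOX, STAR, ELAV, ESRP and NOVA families, the SF3 complex, and Rbm20, Rbm24 and Rbm38. They were chosen by gene symbol and by the protein-coding label in the deposited tables, with earlier results of these data known. Of the 10289 genes with a row in at least 1 of the 3 tables, 53 were members. The C2C12 myoblast line divides in growth medium (GM, with fetal bovine serum) and fuses into myotubes in differentiation medium with horse serum. RNA-seq was made from stable lentiviral, puromycin-selected lines that overexpressed GFP, METTL3 or METTL14, from a vector named for a CMV promoter. All groups thus carried an integrated vector and had passed selection. GFP-overexpressing cells, the negative control, were sequenced in GM (day 0) and on day 4 of differentiation (D4), while the lines with METTL3 or METTL14 were sequenced on day 0 alone. Each of the 4 groups had 2 libraries. The titles of the METTL14 libraries give day 0 and their time point field gives day 4, and the titles were followed. A further 4 MeRIP-seq libraries were not analysed here.

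The tables compare GFP D4 with GFP GM, METTL3 GM with GFP GM, and METTL14 GM with GFP GM, and all 3 comparisons share the GFP GM libraries. Per the authors' methods a gene has a row where its FDR was at most 0.05. The tables hold 1 measurement that is no comparison, the authors' mean normalized count, which is the number of reads assigned to a gene, scaled for library size and averaged over libraries. No value per library was analysed here, so no spread between replicates can be given for any level, and the deposited tables do not give the depth per library. The fold changes and p-values of the authors' own comparisons were not used. A row therefore says only that the gene was kept for that comparison, and the direction and the size of the change are not given. A gene without a row has no value at all. Among the 1746 genes in more than 1 table the mean normalized count was the same in each table, with a largest relative difference of 4.77e-10, so a level belongs to the gene and not to a comparison.

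Pre-mRNA splicing removes introns, and its outcome for alternative exons depends on RNA-binding proteins. SR proteins bind exonic enhancers and mostly promote exon inclusion, whereas hnRNPs and PTB proteins often repress exons. In muscle, MBNL, CELF, RBFOX and RBM proteins set the switch from fetal to adult isoforms, and loss of free MBNL1 underlies the missplicing of myotonic dystrophy. METTL3 and METTL14 form the core of the complex that writes N6-methyladenosine (m6A) on mRNA, and HNRNPC and HNRNPA2B1 have been described as nuclear proteins whose RNA binding responds to m6A.

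Most splicing regulator genes had a row in the D4 table, and few had one in the overexpression tables. The annotation (GENCODE M21 on GRCm38) holds 72 protein-coding genes that fit the rule, and all 53 listed members were found in it. In the comparison of GFP D4 with GFP GM, 52 of the 72 (72.2%) had a row, and 40.1% of the 21951 annotated protein-coding genes did. In the comparison of METTL3 with GFP in GM, 4 of the 72 (5.56%) had a row, beside 7.80% of all annotated protein-coding genes. In the comparison of METTL14 with GFP in GM, 4 of the 72 (5.56%) had a row, beside 4.91% of all annotated protein-coding genes. The shares for METTL3 and METTL14 were thus near those of all annotated genes. Counted among genes with a row in any table, the METTL3 table held 4 of the 53 members (7.55%) and 18.5% of the 9266 listed protein-coding genes, and the shares in the METTL14 table were 7.55% and 11.6%. On that denominator the D4 table held 98.1% of the members and 95.2% of the listed protein-coding genes. The D4 share was above the background, but annotated genes include those that C2C12 cells do not express, and the listed members also had higher mean counts than other listed genes (described below). The part of expression level in the D4 share was not tested, because genes without a row have no level.

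**Figure D1:**
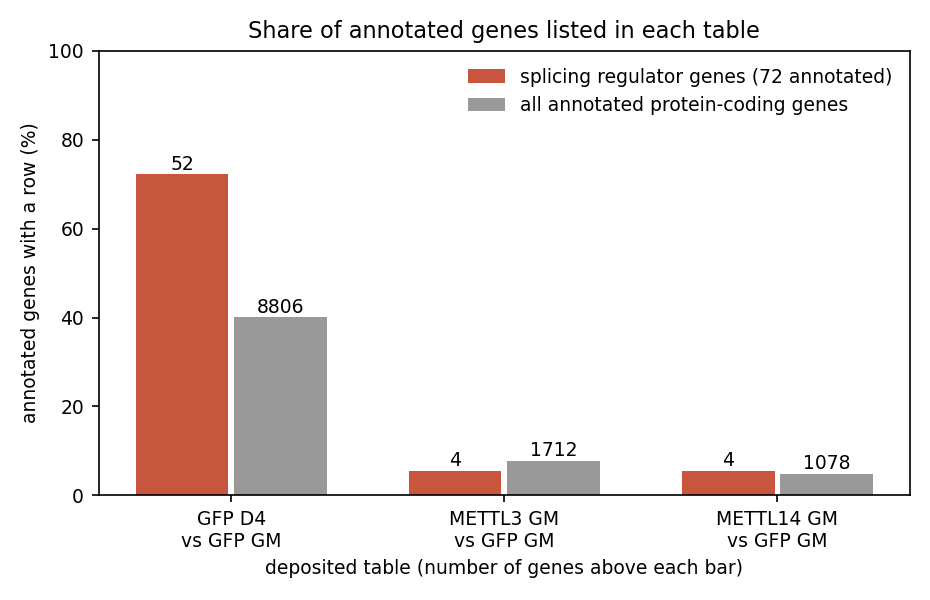
The bars give the percentage of annotated protein-coding genes with a row in each deposited table, for the 72 splicing regulator genes (red) and for all 21951 genes (grey), with the number of listed genes above each bar. The red bar stands above the grey bar for D4 (72.2% beside 40.1%), whereas for METTL3 and METTL14 both bars are under 10%.

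Of the 72 annotated members, 5 had a row in an overexpression table. Each overexpression table held 4 of the 72 (5.56%), beside 7.80% (METTL3) and 4.91% (METTL14) of all annotated protein-coding genes. These counts are near the background. The 5 members came from 5 different families. Mbnl1, the MBNL gene with the higher level, had a row for METTL3 and for METTL14 and none for D4. Of the 53 members listed in any table it was the single one without a row in the D4 table. That table held 95.2% of all listed protein-coding genes. Mbnl1 (ENSMUSG00000027763) lies on the plus strand of chromosome 3 of GRCm38, 60472830 to 60629750. Its mean normalized count of 8672 was the third highest of the 53 members. Sf3a2, a subunit of the U2 snRNP that helps to recognise the branch point, had a row in all 3 tables with a mean normalized count of 2118 (ENSMUSG00000020211, chromosome 10, 80798198 to 80804924). Hnrnpa0, an hnRNP of the A/B group that binds AU-rich RNA, also had a row in all 3 tables, with a mean normalized count of 2847 (ENSMUSG00000007836, chromosome 13, 58125879 to 58128556). Khdrbs3, which encodes the STAR protein SLM2 (T-STAR), had a row for D4 and METTL3 at a mean normalized count of 134 (ENSMUSG00000022332, chromosome 15, 68928420 to 69101211). Celf4, best known as a neuronal member of the CELF family, had a row for D4 and METTL14 at a mean normalized count of 115 (ENSMUSG00000024268). By mean normalized count these genes covered nearly the whole range among members, with Mbnl1 near the top and Khdrbs3 and Celf4 at positions 50 and 51 of 53. The order differed per kilobase of annotated exons (described below). On that scale Hnrnpa0 was at position 9, Sf3a2 at 14, Mbnl1 at 23, Khdrbs3 at 49 and Celf4 at 52. Because the 3 comparisons share the GFP GM libraries, a row in more than 1 table is not an independent repeat.

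The transcript around the stop codon was examined because m6A is known to be concentrated there and GGACT is a frequent form of the m6A consensus. The window ran from 150 bases before to 150 bases after the last base of the stop codon, on the sense strand of 1 principal transcript per gene. GGACT occurred in 9 of the 51 members with a complete window (17.6%), in 33.4% of the windows of all listed protein-coding genes, and in 31.4% of those of all annotated protein-coding genes. Of the 5 genes above, Hnrnpa0, Khdrbs3 and Celf4 had the motif in this window, and Mbnl1 and Sf3a2 did not. The sites of Hnrnpa0 (chr13:58127244-58127268, minus strand of GRCm38, in the 3′ UTR, with the A of the motif 140 bases after the stop codon) and of Khdrbs3 (chr15:69092903-69092927, plus strand, in the coding sequence, 77 bases before the end of the stop codon) are shown 5′ to 3′ as examples of such a match, with the motif in capitals.
Hnrnpa0: ccctgaaggtGGACTcggccccaca
Khdrbs3: caagaggaatGGACTaactcaagac
A match shows only that these letters are present. It is no evidence of methylation, and the lack of a match in the window says nothing about the rest of the transcript.

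The 53 splicing regulators with a row were abundant transcripts. Their mean normalized counts had a median of 2490 (interquartile range 1147 to 4923), beside a median of 545 (178 to 1257) for all 9266 listed protein-coding genes, a ratio of the medians of 4.57. A mean normalized count of at least 1000 was reached by 40 of the 53 members (75.5%) and by 31.4% of all listed protein-coding genes. Of the members, 45 lay above the median of all listed protein-coding genes and 26 in its top 10%. They were 0.572% of the listed protein-coding genes and held 1.35% of the summed mean normalized counts. The members with the lowest counts were Celf3 at 6.83 and Rbfox1 at 99.7, the only members under 100.

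**Figure D2:**
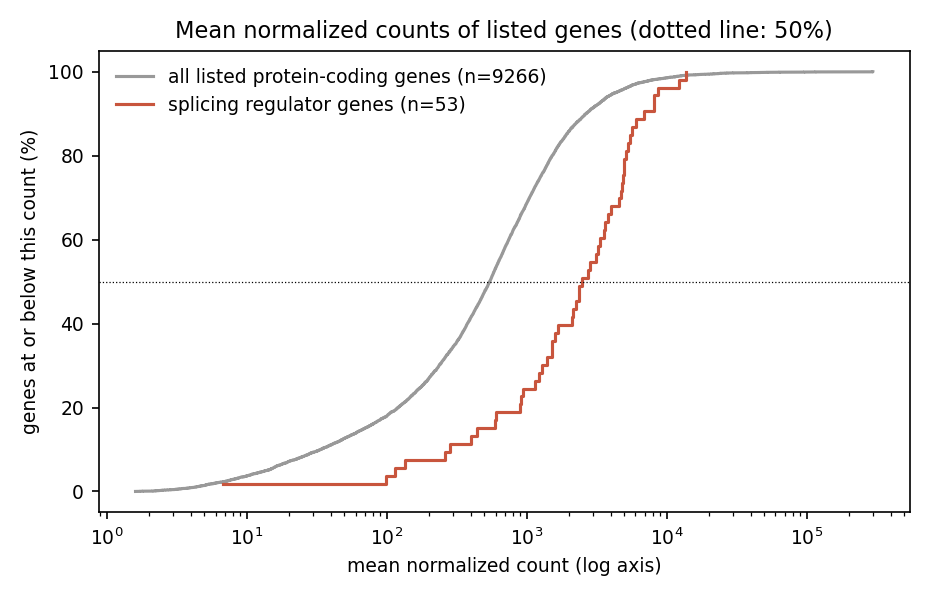
The curves give the percentage of genes at or below each mean normalized count (log axis) for all 9266 listed protein-coding genes (grey) and for the 53 splicing regulator genes (red). The red curve lies to the right, with medians of 2490 and 545 where the curves cross the dotted line at 50%.

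Because long genes gather more reads, levels of different genes were compared per kilobase of annotated exons. On that scale the members had a median of 369 mean normalized counts per kb, beside 115 for all listed protein-coding genes, and 45 of the 53 lay above the latter. With the length of the longest transcript in place of all exons, the medians were 621 and 156, so absolute values per kb depend on the gene model. The ratio of the medians was 3.22 with all exons and 3.98 with the longest transcript. Mbnl1 moved more than most, from 463 per kb to 1534 per kb, since its annotated exons sum to 18717 bases and its longest transcript has 5655.

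The hnRNP genes, the largest family with 18 of the 53 listed members, held 52.2% of the summed mean normalized counts of the members. This sum is not corrected for gene length. The family median per kb was 785, beside 682 for the 2 listed PTB genes. The hnRNP family had rows for 18 of its 20 annotated genes, all of them in the D4 table. That table held 40.1% of all annotated and 95.2% of all listed protein-coding genes. The highest level per kb of all members belonged to Hnrnpab, at 2485 per kb from a mean normalized count of 6912. It was followed by Hnrnpa2b1 at 2093 per kb and Hnrnpa1, a classical repressor of exon inclusion, at 1930 per kb. With the longest transcript as the length, Hnrnpa2b1 (3781 per kb) came before Hnrnpab (2917 per kb). By mean normalized count the order differed, with Hnrnpa2b1 at 13783 and Hnrnpu, a nuclear scaffold protein, at 12299 in front. The lowest level per kb in the family was that of Hnrnpr, 68.5, whose exons sum to 22199 bases. Hnrnpa0 stood at 1063 per kb. Of the 10 members with the highest level per kb, 7 were hnRNP genes and 3 SR protein genes, and with the longest transcript as the length 8 and 2.

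The SR protein genes were listed almost completely. Rows were present for 12 of the 13 annotated genes, Srsf12 being the exception, and all 12 were in the D4 table, as were 40.1% of all annotated protein-coding genes. None was in the METTL3 or METTL14 table, where 7.80% and 4.91% of all annotated protein-coding genes were listed, so a count of 0 among 13 genes is near the background. Srsf2, whose protein also acts in transcription elongation, had the highest level of the family at 1205 per kb, close to Srsf6 at 1177 and Srsf5 at 1146 per kb. No spread between libraries is available to separate these values. The lowest level was that of Srsf4, at 79.8 per kb and a mean normalized count of 284. The SR-like regulators Tra2a and Tra2b, which bind GA-rich enhancers, stood at 242 and 124 per kb.

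**Figure D3:**
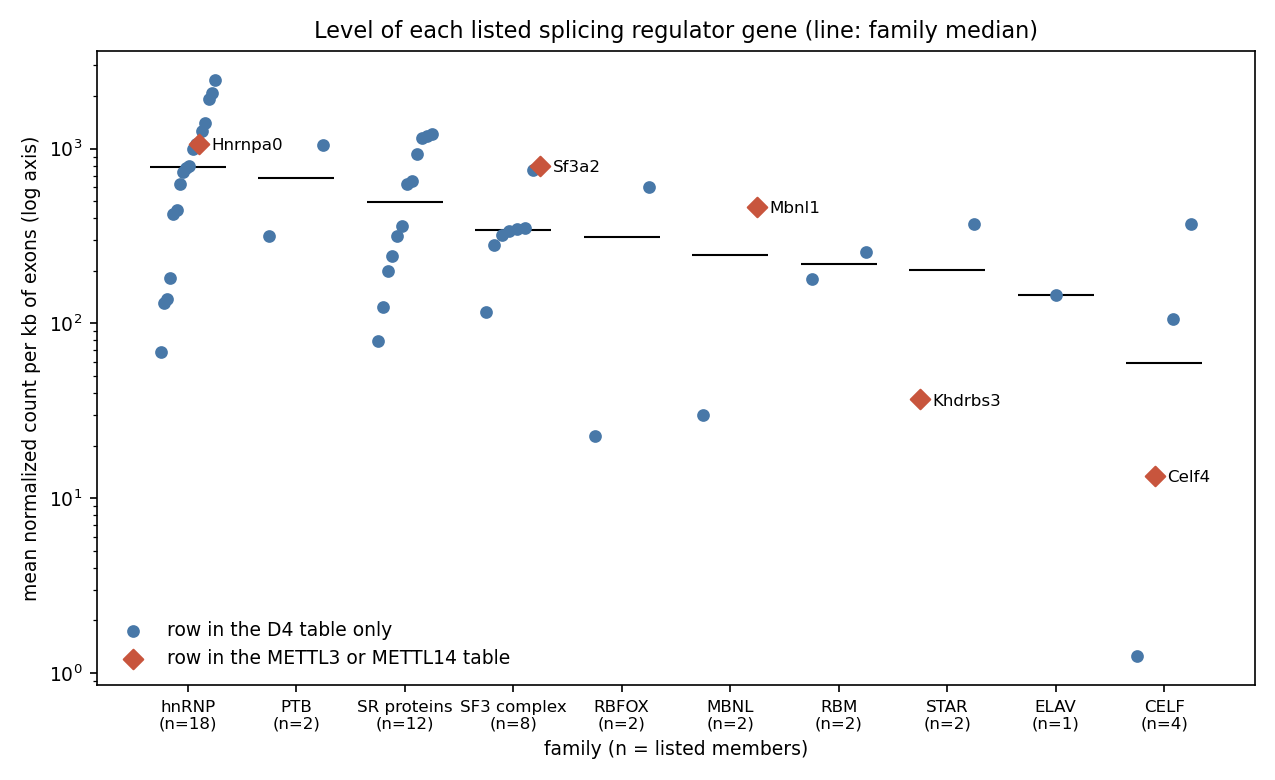
Each point is 1 listed member, placed by family on the x axis and by its mean normalized count per kb of annotated exons on the y axis (log axis), with a line at the family median and red diamonds for the 5 genes with a row in the METTL3 or METTL14 table. The diamonds run from Hnrnpa0 at 1063 per kb to Celf4 at 13.4 per kb.

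Among the regulators known from muscle, the listed paralogues of the RBFOX and MBNL families lay far apart. Rbfox2 was at 605 per kb and Rbfox1, the paralogue known from adult muscle and neurons, at 22.7 per kb. Mbnl1 was at 463 per kb, and Mbnl3, which is expressed in myoblasts and the placenta and lies on chromosome X, at 29.8 per kb. Celf1, which binds GU-rich RNA and opposes MBNL1 on several muscle exons, was at 373 per kb, Celf2 at 106, Celf4 at 13.4 and Celf3 at 1.25 per kb. The distance between Celf1 and Celf2 was smaller with the longest transcript as the length (401 and 309 per kb). Ptbp1, a repressor of muscle and neuronal exons, was at 1047 per kb, and Ptbp3 at 317. Rbm24, which promotes the inclusion of muscle exons, was at 255 per kb, and Rbm20, the regulator of titin splicing, at 180 per kb. All of these genes except Mbnl1 had a row in the D4 table, which held 95.2% of all listed protein-coding genes. Such rows are therefore near the background. The averages mix libraries of myoblasts and myotubes, and an order of levels within either stage cannot be read from them. As they are the same for all 3 comparisons, they also mix the GFP, METTL3 and METTL14 lines. By the titles, only GFP D4 of the 4 groups of 2 libraries was differentiated.

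The SF3 complex, part of the U2 snRNP and required for nearly every intron, had rows for 8 of the 9 annotated genes whose symbol fits the rule. All 8 were in the D4 table, which held 40.1% of all annotated and 95.2% of all listed protein-coding genes. Its levels ran from 797 per kb for Sf3a2 to 116 for Sf3b5, and with the longest transcript as the length Sf3b2 was the highest at 1590 per kb. Sf3b1, the largest subunit of SF3b, had no row. Of the STAR genes, Khdrbs1, which encodes SAM68, was at 369 per kb and Khdrbs3 at 36.7. Elavl1, which encodes the mRNA-stabilising protein HuR, was the single listed ELAV gene, at 146 per kb.

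No row in any table was found for 19 annotated members. They were Srsf12, Hnrnph2, Hnrnph3, Ptbp2, Mbnl2, Celf5, Celf6, Rbfox3, Sf3b1, Khdrbs2, Qk, Elavl2, Elavl3, Elavl4, Rbm38, Esrp1, Esrp2, Nova1 and Nova2. Several are best known from neurons (Rbfox3, Nova1, Nova2, Elavl2, Elavl3 and Elavl4) or epithelia (Esrp1 and Esrp2), whereas Mbnl2, Rbm38 and Qk are known from muscle cells. Whether these genes were unexpressed or were expressed and not kept cannot be told apart here.

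Splicing factors often limit their own amount by splicing their transcripts into forms that nonsense-mediated decay (NMD) removes, and the annotation records such transcripts. An NMD transcript was annotated for 27 of the 53 members (50.9%), beside 28.0% of all listed protein-coding genes. Genes with more annotated transcripts have more chances to hold such a form, and members had a median of 7 transcripts where all listed protein-coding genes had 5. Among genes with 1 to 4 transcripts, 4 of 13 members and 10.1% of all listed protein-coding genes had an NMD transcript. Among genes with 5 to 9 transcripts these were 11 of 19 members and 35.4%. Among genes with 10 or more transcripts these were 12 of 21 members and 56.6%, so that the shares were close there. By family, NMD transcripts were annotated for 11 of the 12 listed SR protein genes, for 9 of 18 hnRNP genes, and for both PTB genes. Both listed STAR genes, 2 of 4 CELF genes and 1 of 2 RBM genes also had one. NMD transcripts were annotated for none of the 8 listed SF3 complex genes and none of the listed MBNL, RBFOX and ELAV genes. The listed SF3 complex genes had a median of 4 transcripts and the SR protein genes 7.5, and the family counts were not adjusted for this. The tables count reads per gene, so NMD forms and coding forms are summed in every level given here.

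**Figure D4:**
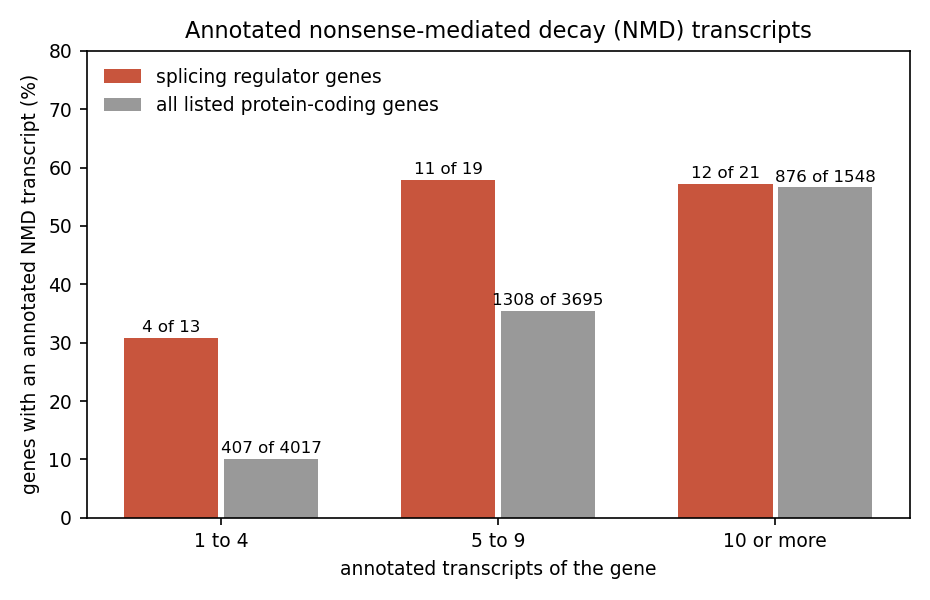
The bars give the percentage of genes with an annotated NMD transcript, for splicing regulator genes (red) and all listed protein-coding genes (grey), in classes of genes by number of annotated transcripts, with the counts above each bar. The red bars are higher for genes with 1 to 4 and 5 to 9 transcripts, and both bars have about the same height from 10 transcripts on.

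Other genes of the splicing machinery were looked up by lists. Of 8 kinases that phosphorylate SR proteins, 6 (75%) had a row for D4 and none for METTL3 or METTL14. They included Srpk3, the muscle-specific SR kinase, at a mean normalized count of 305, and Clk1 at 2284. Of 22 core snRNP and early spliceosome genes, 19 (86.4%) had a row for D4, 2 for METTL3 (Snrpc and Snrpg) and 1 for METTL14 (Snrpc). Snrpc encodes a protein of the U1 snRNP, and Snrpg a protein of the Sm ring. Of 22 other RNA-binding splicing factors, 18 (81.8%) had a row for D4, among them Tardbp and Srrm2, and 1, Nono, had a row for METTL3. The median mean normalized counts of the listed genes were 1374, 959 and 3093 in these lists. Like the splicing regulators, these lists had a larger share of rows for D4 than the 40.1% of all annotated genes, and their level was not separated from it. Their counts for METTL3 and METTL14 were small, as were the shares of all annotated genes there (7.80% and 4.91%).

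The targeted genes and the cell type markers were checked by their rows. Mettl3 had a row for METTL3 (mean normalized count 5827), and Mettl14 had a row for METTL14 and for D4 (mean normalized count 6250). These averages may include reads of the overexpressed mouse cDNAs, so they cannot be read as levels of the endogenous genes. The myoblast markers Myod1, Myf5, Des, Cdh15 and Pax7 and the myotube markers Myog, Ckm, Myh3 and Acta1 were all listed in at least 1 table, Pax7 at a mean normalized count of only 21.7. All 5 myoblast markers had a row for METTL3, 4 of 5 (Myf5 being the exception) for METTL14 and 4 of 5 (Myod1 being the exception) for D4. The myotube markers all had a row for D4, and Acta1 also for METTL14. The endothelial, leukocyte and adipocyte markers Pecam1, Cdh5, Ptprc and Adipoq had no row. The mesenchymal progenitor markers Pdgfra and Ly6a had rows at mean normalized counts of 525 and 750, Pdgfra for D4 and Ly6a in all 3 tables. Whether cells of another kind contributed to the splicing regulator values was not tested.

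Some counts cannot be assigned with certainty. Exons of 22 of the 53 members overlap an exon of another annotated gene on either strand, among them Sf3a2 (with Plekhj1), Srsf2 (with Mettl23 and Mfsd11) and Ptbp1 (with Plppr3), and whether the counting used strand is not given in the sources used here. The 31 members without such an overlap had a median of 360.2 mean normalized counts per kb. A processed pseudogene, Hnrnpa1l2-ps2, also had a row for D4, at a mean normalized count of 7.32. It was left out by the protein-coding label.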

How the data were processed

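RNA-seq of GFP-overexpressing C2C12 cells in GM and at D4 and of METTL3- and METTL14-overexpressing cells in GM was used through 3 deposited tables. For alignment to GRCm38 the authors used hisat2, for gene counts featureCounts with Ensembl version 102, and for their comparisons DESeq2 was used by the authors. The mean normalized count that the authors deposited is a signal, the counts after scaling by size factors and averaging across libraries. Tool versions are not given in the sources used here. The tables also hold the authors' log2 fold changes, standard errors, Wald statistics and p-values, which were not used, so no direction was read and no test was made.

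Members and lists were chosen with earlier results of these data known. Gene positions, exons and transcripts came from GENCODE M21 on GRCm38, in which 10282 of the 10289 listed identifiers were found. A level per kb is the mean normalized count divided by the summed length of all annotated exons. A share of annotated genes uses the 72 members or 21951 protein-coding genes annotated there. For stop codon windows the principal transcript with the longest coding sequence was taken. Genes named with values were the members with a row for METTL3 or METTL14, the highest and lowest of each family, Mettl3, Mettl14 and the markers, and further members were named after their values were seen. Alternatives were a minimum mean count of 100, other sets of families, another denominator and another length. In the other splicing lists, 1 gene was counted but is not reported here. The member rule and the assignment to families were tested on example gene names, and the summed exon length on simulated intervals. The other steps were not tested in this way. Python 3.11.15 with pandas 2.3.3, NumPy 2.4.6, SciPy 1.17.1 and matplotlib 3.10.9 was used.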

Additional observations from a re-analysis of the deposited data

How the results depend on the processing

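Of 19 alternative values for 5 results, 17 lay within the 95% binomial interval of the reported value (for medians, the order-statistic interval over the members), which covers the number of genes and not the error of the libraries. These intervals are wide (2.18% to 13.4% around 5.56% for METTL3 and for METTL14), so a value within them is a weak check. The minimum mean count of 100 kept all 72 members as the denominator. It could not change the METTL3 and METTL14 shares, as no member with such a row was under 100. The share of members with a row in the D4 table was 72.2% and rose to 81.2% when only the SR, hnRNP, PTB, MBNL, CELF and RBFOX families were counted, and to 98.1% when the denominator was the 53 members listed in any table, since only Mbnl1 lacks a row there. On that last denominator 95.2% of all listed protein-coding genes were in the D4 table. The shares for METTL3 ran from 4.17% to 7.55% and those for METTL14 from 4.76% to 7.55%. The highest values used the 53 listed members as the denominator, for which the shares of all listed protein-coding genes were 18.5% and 11.6%. The median level per kb was 621 with the longest transcript in place of all exons (reported value 369), which moved the rank of 1 member, Srsf11, by more than 10 places. No paired analysis was possible because the tables hold no value per library, and for the same reason no library could be left out. The deposited tables give no depth per library, and a gene without a row may be unexpressed, unchanged or too weakly counted.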
